A study of Mus musculus with 143 samples.

Results

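The comparison described here is between 16 metaphase II (MII) eggs of Dis3 conditional knockout mice (Dis3 cKO) and 8 MII eggs of control mice. These 24 libraries were chosen by their titles, out of 143 samples in the series and 71 poly(A) RNA libraries of single oocytes or eggs. The series also holds poly(A) libraries of germinal vesicle (GV) oocytes, which are fully grown and still arrested in prophase, and of oocytes at 3 h of culture, both used below only for comparison (8 control and 15 Dis3 cKO GV oocytes, 8 control and 16 Dis3 cKO oocytes at 3 h). All the mice were Mus musculus, and the eggs were taken from the oviducts of superovulated females and lysed singly. The labels describe the mutant mice as made by CRISPR/Cas9 and give the genotypes as control and dis3cKO. They do not say which Cre driver deleted the gene, which alleles the controls carried, how old the females were or how many females gave the eggs. Each egg was counted as a replicate, so p-values measure the spread between these eggs and not the spread between females.

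DIS3 is the processive 3′ to 5′ ribonuclease, with an additional endonuclease activity, of the nuclear RNA exosome. The exosome degrades promoter upstream and other short-lived noncoding transcripts, trims precursors of stable RNAs and removes faulty transcripts. A fully grown mouse oocyte is transcriptionally silent, and during meiotic maturation it degrades a large part of its stored mRNA while other mRNAs are kept or receive longer poly(A) tails for translation. An ovulated egg waits at metaphase II, held there by CDK1 activity and EMI2, until sperm trigger its activation. What an MII egg contains is therefore what was transcribed during growth and then spared, and in these libraries only RNA with a poly(A) tail that oligo-dT could capture was counted.

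The egg libraries held between 6246715 and 11784288 gene counts, with 106665 to 585335 counts of the ERCC spike-in, synthetic RNAs added to each lysate. Levels are given below as counts per 1000000 gene counts (CPM). The transcript of Dis3 (chr14:99076634-99099780 in GRCm38.p6) lay between 2.19 and 17.3 CPM in control eggs (median 8.80) and between 0 and 2.14 CPM in Dis3 cKO eggs (median 0.495). It was below every control egg in all 16 Dis3 cKO eggs (log2 fold change -3.67, SE 0.49, edgeR adjusted p 1.98e-06; -3.28 under ERCC scaling). Counts were not split by the deleted part of the gene, whose position the labels do not give, and Dis3 overlaps Pibf1. The 12 oocyte markers summed to between 20946 and 26349 CPM in controls and between 24782 and 34902 CPM in 15 Dis3 cKO eggs, so that these libraries held abundant oocyte transcripts.

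Egg 15 of the Dis3 cKO group stood apart from the rest. Its oocyte markers summed to 11417 CPM, its ratio of gene counts to ERCC counts was 14.4 against 48.6 to 81.0 in the other 15, and mitochondrially encoded transcripts made up 2.25% of its counts against 0.269% to 1.26%. The log2 profile of egg 15 correlated with the mean of its group at 0.867, and those of the other 15 at 0.953 to 0.978. Counts of list members that moved by more than 1.5 times without it are given with and without it.

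Some genes also followed stretches of consecutive title numbers among the Dis3 cKO eggs. In the Dis3 cKO group 25 genes were at 20 CPM or more in at least 4 eggs and at 3 CPM or less in at least 4 others. For 23 of the 25, none of the stretches 1 to 4, 5 to 11 and 12 to 16 held both high and near-absent eggs. Pnpla3, which encodes a patatin-like lipase, lay between 105 and 133 CPM in eggs 5 to 11 and between 0.182 and 1.60 CPM in the other 9. The uncharacterised gene 5730507C01Rik lay between 11.9 and 37.1 CPM in eggs 1 to 11 and at or below 0.119 CPM in eggs 12 to 16. The stretches were drawn after these values were seen, and the labels do not say whether eggs of neighbouring numbers share a female or a day. Of the 25 genes, 11 were called different from controls below. In controls 0 genes met the rule, which needs at least 4 eggs on each side and so misses a shorter stretch. Control eggs 6 to 8 stood apart from eggs 1 to 5 in some genes, picked after their values were seen. Draxin lay at 0.438 to 2.26 against 12.7 to 22.9 CPM, Dis3 at 2.19 to 4.42 against 8.12 to 17.3 CPM, and Ldhb at 926 to 1787 against 506 to 629 CPM.

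Across the transcriptome, loss of Dis3 was accompanied by more rises than falls, and the balance between them depended on the scaling. In library scaling each egg is scaled to its own gene counts with TMM factors, and in ERCC scaling each egg is scaled to its summed spike-in counts. With library scaling, 4336 of 14166 tested genes (30.6%) passed an edgeR adjusted p of 0.05, 2473 of them higher (17.5%) and 1863 lower (13.2%). With ERCC scaling 4005 genes (28.3%) passed, 3615 higher (25.5%) and 390 lower (2.75%). The median log2 fold change over all tested genes was 0.08 under library scaling and 0.47 under ERCC scaling, which is the shift between the scalings. All 2473 genes called higher under library scaling were also called higher under ERCC scaling, and 390 genes were called lower under both. The remaining 1473 that were lower relative to the library were not called per spike-in, and 201 of these had a positive ERCC estimate.

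**Figure D1:**
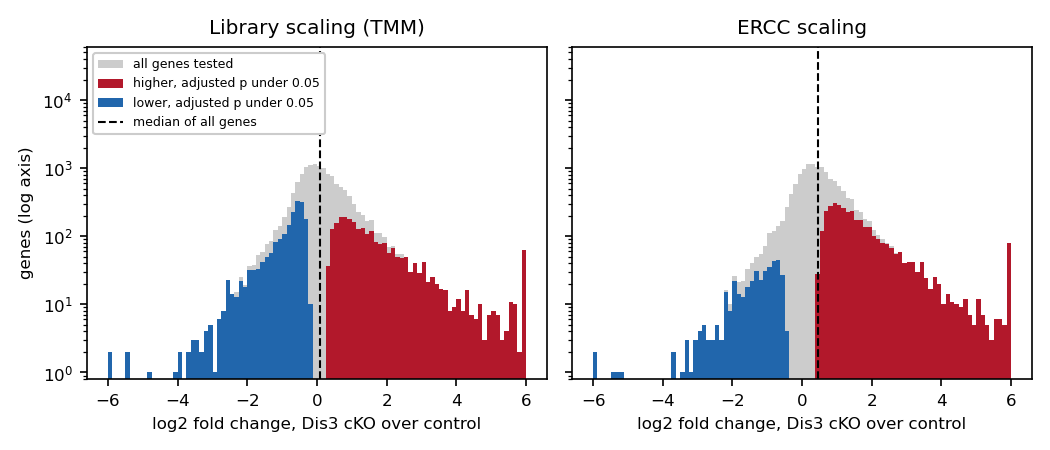
Histograms of the log2 fold change (Dis3 cKO over control MII eggs) of the 14166 tested genes under library scaling and under ERCC scaling; the y axis counts genes on a log scale, values beyond 6 in either direction are drawn in the end bins, and the dashed line is the median. The median moves from 0.08 to 0.47, and genes called lower go from 1863 to 390.

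ERCC scaling rests on the ratio of gene to ERCC counts of each egg, which was 46.0 ± 3.43 in controls (SD, n = 8, range 42.2 to 52.2) and 55.5 ± 15.3 in Dis3 cKO eggs (SD, n = 16, range 14.4 to 81.0). In Dis3 cKO 9 eggs were above every control and egg 15 was below every control, so the groups overlapped. The mean log2 ratio was 0.20 higher in Dis3 cKO eggs (2-sided exact permutation p 0.376, adjusted over 4 measures 0.502). Without egg 15 the difference was 0.32 (exact permutation p 0.00286). The high ratios were those of eggs 5 to 11, at 55.1 to 81.0, while eggs 1 to 4 lay at 48.6 to 52.5. Leaving out eggs 5 to 11 took the ERCC calls to 1173 higher (9.0%) and 451 lower (3.46%), or 12.5% of the genes in that fit, and leaving out egg 15 took them to 5872 higher (41.7%) and 522 lower (3.71%), 45.4% of genes in all. The fit without eggs 5 to 11 kept egg 15 and had fewer eggs, so its fall in calls cannot be assigned to the stretch alone. Library calls without egg 15 were 35.4% of genes, 19.9% higher and 15.5% lower. More mRNA per egg and better capture of the same mRNA, for example through longer poly(A) tails, cannot be told apart in these libraries. Median ERCC counts were 148556 in eggs 5 to 11 and 209504 in eggs 1 to 4, with median gene counts of 10912200 and 10558900. Egg 15 had 585335 ERCC counts. Whether the same amount of ERCC RNA reached each lysate was not tested.

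More genes were detected in the eggs without Dis3. Between 16772 and 17412 genes had at least 1 count in a control egg, and between 18025 and 19753 in 15 of the 16 Dis3 cKO eggs, with egg 15 at 16762. The mean was 1.09-fold higher (exact permutation p 1.22e-05, adjusted over 4 measures 4.89e-05). After each library was thinned to the 6246715 counts of the shallowest egg, controls held 15997 to 16588 genes, and 15 Dis3 cKO eggs held 17216 to 18825. Egg 15 then held 16376, within the control range.

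**Figure D2:**
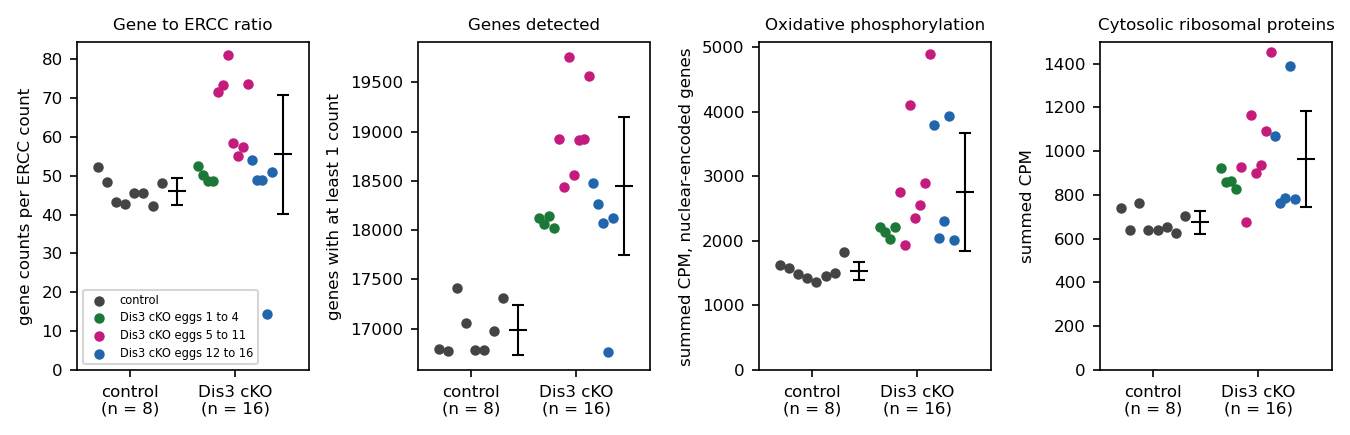
Per-egg values for 8 control and 16 Dis3 cKO MII eggs: ratio of gene to ERCC counts, genes detected, summed CPM of the nuclear-encoded oxidative phosphorylation genes and summed CPM of the cytosolic ribosomal protein genes; points are eggs, coloured by title number, and bars are mean ± SD. The oxidative phosphorylation sum of every Dis3 cKO egg lies above every control, whereas the gene to ERCC ratio of egg 15 lies at 14.4.

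The additional genes detected included noncoding ones. Long noncoding RNA genes detected per egg numbered 1270 ± 41.5 in controls (SD, n = 8) and 1559 ± 90.4 in Dis3 cKO eggs (SD, n = 16), and all 16 were above every control. Of the 921 long noncoding RNA genes tested, 34.1% were higher and 6.19% lower under library scaling. Among 359 pseudogenes 31.8% were higher and 8.08% lower, whereas of 11329 protein-coding genes 14.2% were higher and 14.6% lower. Under ERCC scaling 41.4% of the long noncoding RNA genes were higher and 1.85% lower, 35.9% and 3.34% of the pseudogenes, and 22.6% and 2.87% of the protein-coding genes. Tested genes nearly absent from controls may have passed the filter on low counts mainly through the Dis3 cKO eggs. Such genes could hardly be called lower, and how many each type held was not counted, so the contrast between types is a description only. Genes that RefSeq types as long noncoding or antisense RNA made up 2.33% ± 0.27 of the counts in controls and 2.38% ± 0.24 in Dis3 cKO eggs (log2 difference 0.03, exact permutation p 0.624). That share leaves out pseudogenes and genes without a RefSeq type. A large part of it was the locus AY036118, which overlaps a ribosomal RNA copy. AY036118 lay between 7340 and 15371 CPM in controls and between 5238 and 11767 CPM in Dis3 cKO eggs. The share without this locus was not tested, so the p-value says little of the other long noncoding RNA genes together.

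Transcripts for the nuclear-encoded subunits and assembly factors of oxidative phosphorylation, the respiratory complexes and ATP synthase of the inner mitochondrial membrane, were higher in Dis3 cKO eggs. Of 76 tested members (79 in the list), 44 rose, 0 fell and 32 did not pass, against 17.5% higher and 13.2% lower of all tested genes, with a median log2 fold change of 1.10 against 0.08 over all tested genes. Under ERCC scaling 50 rose and 0 fell, with a median of 1.48, against 25.5% and 2.75% of all tested genes. Without eggs 5 to 11 this ERCC count was 24 of 71 (median 0.89), against 9.0%. At an unadjusted p under 0.05, 2 members were lower with edgeR and library scaling and 0 with ERCC scaling, and DESeq2 called 1 and 0 lower. In controls 68 members of the list had a mean above 1 CPM. Tested members below that may have passed the filter on low counts mainly through the Dis3 cKO eggs. Summed over the list, controls lay between 1366 and 1821 CPM and Dis3 cKO eggs between 1932 and 4895 CPM, so that all 16 were above every control. Eggs 7, 11, 12 and 15 were the highest, at 3796 to 4895 CPM, and the other 12 lay at or below 2899 CPM.

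The members with the smallest adjusted p were Cox14, Ndufa2, Cox7a2 and Ndufab1. Cox14, a cytochrome c oxidase assembly factor, lay between 5.96 and 23.3 CPM in control eggs (median 12.3) and between 32.2 and 184 CPM in Dis3 cKO eggs (median 77.4), and the groups did not overlap (log2 fold change 2.60, SE 0.29, edgeR adjusted p 1.38e-07). The complex I subunit Ndufa2 lay between 2.42 and 10.4 CPM in control eggs (median 3.84) and between 10.1 and 66.9 CPM in Dis3 cKO eggs (median 18.6) (log2 fold change 2.33, SE 0.36, edgeR adjusted p 1.52e-05). Cox7a2, a subunit of cytochrome c oxidase, lay between 20.4 and 58.8 CPM in control eggs (median 31.0) and between 55.7 and 288 CPM in Dis3 cKO eggs (median 101), with egg 8 the highest control (log2 fold change 1.80, SE 0.27, edgeR adjusted p 1.06e-05). Ndufab1, the mitochondrial acyl carrier protein that is also a complex I subunit, lay between 9.93 and 24.9 CPM in control eggs (median 17.5) and between 20.9 and 54.1 CPM in Dis3 cKO eggs (median 42.5) (log2 fold change 1.09, SE 0.16, edgeR adjusted p 6.28e-06). For these 4 genes the ERCC estimates were 3.12, 2.80, 2.19 and 1.51. Ndufa2 overlaps Tmco6, and Cox7a2 overlaps Tmem30a, so their counts may include the neighbour.

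Of the 32 members that did not pass, 4 were picked as examples after their values were seen. These examples do not stand for the 32, since 68 of the 76 tested members had a positive log2 fold change. The flavoprotein Sdha of complex II had a mean 102 CPM in controls and 95.6 CPM in Dis3 cKO eggs (log2 fold change -0.20, edgeR adjusted p 0.257). Uqcrc2, a core subunit of complex III, had a mean 136 CPM in controls and 137 CPM in Dis3 cKO eggs (log2 fold change -0.10). The ATP synthase alpha and beta subunits Atp5a1 and Atp5b had log2 fold changes of -0.25 and 0.18.

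Of the subunits that the mitochondrial genome itself encodes 7 were tested, and 0 rose and 0 fell under library scaling in the edgeR test, and 3 rose under ERCC scaling, against 25.5% of all genes. At an unadjusted p under 0.05 it was again 0 and 0, and DESeq2 called 0 with its own size factors. Their median was 0.33 with egg 15 and 0.03 without it. Without eggs 5 to 11, 2 of 7 were higher under library scaling (median 0.61), against 12.2% of all genes. In GV oocytes 7 of 7 were higher (median 1.30), against 14.8%. The Dis3 effect at MII minus that at GV, tested as an interaction, was lower for 2 of the 7 and higher for 0. Over all genes 2.76% were lower in that test. Under ERCC scaling it was lower for 1 of the 7, against 0.409%. The mitochondrial share of the counts was 0.546% ± 0.138 in controls (SD, n = 8) and 0.747% ± 0.480 in Dis3 cKO eggs (SD, n = 16; exact permutation p 0.374).

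How many oxidative phosphorylation genes passed moved with the eggs included. Without eggs 5 to 11 it was 28 of 71 tested (median 0.92), where 22.5% of all genes were called, 12.2% higher and 10.3% lower. Without eggs 1 to 4 it was 43 of 76, where 30.5% of all genes were called, 16.4% higher and 14.1% lower. With eggs 12 to 16 left out it was 45 higher and 2 lower of 75, where 33.1% of all genes were called, 18.3% higher and 14.8% lower. Without egg 15 it was 44 higher and 2 lower of 76. With counts summed over 4 consecutive title numbers it was 20 higher and 1 lower of 79 (median 1.05), where 7.70% of all genes were higher and 5.81% lower.

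Promoters of 3 members that rose are shown because they share a 10-base motif in capitals, GCGCATGCGC, a palindrome made of GCGCA and its reverse complement and a site type of the transcription factor NRF1, which is known for controlling respiratory chain genes. The sequences come from the RefSeq table of GRCm38.p6 and run from 250 bases before to 50 bases after the start, 5′ to 3′ on the gene's strand.

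Ndufa11 (chr17:56717512-56717811, plus strand): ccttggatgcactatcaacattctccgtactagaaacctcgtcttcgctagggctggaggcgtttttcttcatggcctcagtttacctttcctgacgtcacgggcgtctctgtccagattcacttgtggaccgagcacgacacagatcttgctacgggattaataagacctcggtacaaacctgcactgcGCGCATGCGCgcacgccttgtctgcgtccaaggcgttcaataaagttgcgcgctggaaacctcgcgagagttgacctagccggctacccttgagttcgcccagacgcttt

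Cox6a1 (chr5:115348909-115349208, minus strand): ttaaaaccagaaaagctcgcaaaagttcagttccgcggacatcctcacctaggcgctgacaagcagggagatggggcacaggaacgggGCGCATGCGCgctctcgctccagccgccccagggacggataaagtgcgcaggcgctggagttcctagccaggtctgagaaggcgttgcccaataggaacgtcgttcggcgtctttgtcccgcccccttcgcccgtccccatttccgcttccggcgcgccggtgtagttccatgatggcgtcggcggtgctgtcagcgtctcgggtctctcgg

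Atp5k (chr5:108434350-108434649, minus strand): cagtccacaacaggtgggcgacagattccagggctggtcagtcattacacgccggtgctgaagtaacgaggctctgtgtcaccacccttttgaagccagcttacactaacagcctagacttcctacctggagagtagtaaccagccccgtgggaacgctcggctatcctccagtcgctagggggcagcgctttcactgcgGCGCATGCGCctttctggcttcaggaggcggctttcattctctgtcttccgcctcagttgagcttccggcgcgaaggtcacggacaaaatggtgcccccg

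Of the 79 list members, 66 had a promoter in the table, and 5 of these (7.58%) held the motif on either strand, namely Ndufa11, Uqcrc1, Cox6a1, Atp5g2 and Atp5k. Of all 27025 genes with a promoter there, 290 (1.07%) held it, and of the 9929 that were tested here, 223 (2.25%). The 7.58% includes members that were not tested, so it stands beside the 1.07% and not the 2.25%. The motif was also held by 3 of 69 mitochondrial ribosomal protein genes (4.35%) and 2 of 60 cytosolic ones (3.33%). Ndufa11, a complex I subunit, had a mean 7.35 CPM in controls and 27.7 CPM in Dis3 cKO eggs (log2 fold change 1.77). Cox6a1, a cytochrome c oxidase subunit, had a mean 24.7 CPM in controls and 66.2 CPM in Dis3 cKO eggs (log2 fold change 1.28), and Atp5k, the ATP synthase e subunit, a mean 1.74 CPM in controls and 11.2 CPM in Dis3 cKO eggs (log2 fold change 2.54). The other holders, Uqcrc1 and Atp5g2, did not pass the filter on low counts, with means of 0.345 and 0.259 CPM in controls and 0.412 and 0.596 CPM in Dis3 cKO eggs. Most members that rose did not hold these letters in this window, and a match is a description of the sequence only.

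In control libraries the summed level of the list was 7148 ± 693 CPM in GV oocytes (SD, n = 8), 5966 ± 543 CPM at 3 h of culture (SD, n = 8) and 1531 ± 143 CPM in MII eggs (SD, n = 8). In Dis3 cKO it was 6796 ± 806 CPM in GV oocytes (SD, n = 15) and 2760 ± 913 CPM in MII eggs (SD, n = 16). In GV oocytes 2 members were higher and 11 lower (14.8% and 12.4% of all genes tested there, 27.3% in either direction), with a median of -0.14. The interaction, the Dis3 effect at MII minus that at GV, was higher for 38 of 76 members and lower for 0, against 5.84% higher and 2.76% lower over all 16367 genes tested. By CPM the mean of the MII Dis3 cKO eggs lay between those of GV and MII controls, and the highest egg, egg 11 at 4895 CPM, was nearer to the GV control mean.

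Per ERCC count the stages stood further apart. The sum of the list was 0.981 ± 0.147 counts per ERCC count in control GV oocytes (SD, n = 8), 0.0707 ± 0.0107 in control MII eggs (SD, n = 8) and 0.155 ± 0.0837 in Dis3 cKO MII eggs (SD, n = 16). On this scale the Dis3 cKO MII eggs, egg 11 at 0.361 among them, were all nearer to the MII control mean, and egg 15 at 0.0566 lay below every control. In Dis3 cKO GV oocytes the sum was 0.720 ± 0.141 (SD, n = 15). With ERCC scaling 1 member was higher and 37 lower at GV (7.3% and 21.5% of all genes, 28.8% in either direction), with a median of -0.42, and the interaction was higher for 60 of 76 and lower for 0 (23.5% and 0.409%).

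**Figure D3:**
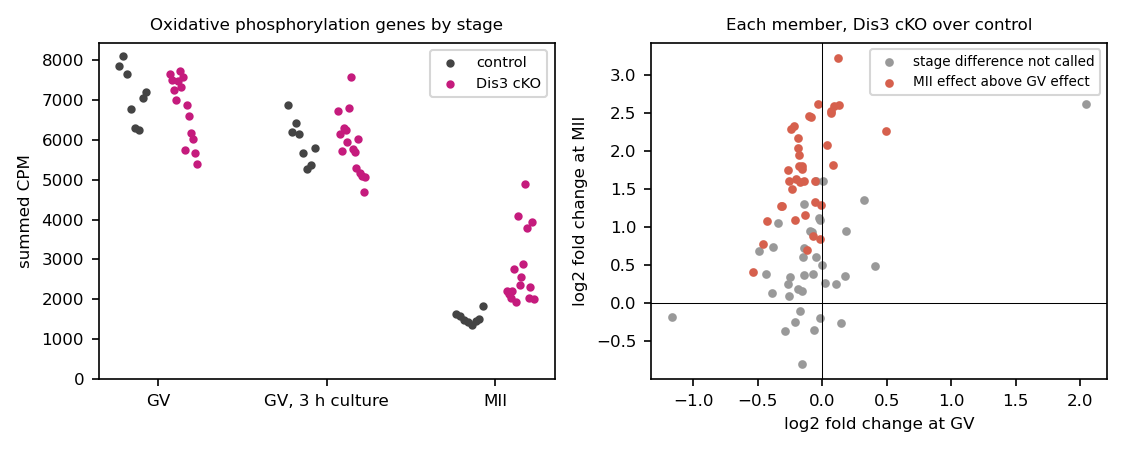
Left, summed CPM of the nuclear-encoded oxidative phosphorylation genes in each poly(A) library by stage and genotype (each point is a library); right, the log2 fold change (Dis3 cKO over control, library scaling) of each member at MII against that at GV. The sum falls from 7148 to 1531 CPM between control GV oocytes and control MII eggs, and is 2760 CPM in Dis3 cKO MII eggs (0.981, 0.0707 and 0.155 per ERCC count, not drawn); most members lie above 0 at MII and near 0 at GV.

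Among genes for cytosolic ribosomal proteins more were called higher than lower, but 33 of those tested did not pass. Their median was smaller than that of the oxidative phosphorylation list. Of 54 tested (81 in the list), 20 rose and 1 fell, median 0.72, against 17.5% and 13.2% of all tested genes. In controls 40 members of the list had a mean above 1 CPM. Tested members below that may have passed the filter on low counts mainly through the Dis3 cKO eggs and could hardly be called lower. Under ERCC scaling 26 rose and 0 fell, median 1.14, against 25.5% and 2.75%. Leaving out egg 15 gave 20 and 2 (31 and 0 under ERCC scaling), and without eggs 5 to 11 they were 14 and 1 of 51 (14 and 0). Their sum lay between 628 and 761 CPM in controls and between 675 and 1455 CPM in Dis3 cKO eggs, 15 of which were above every control. The stalk protein Rplp1 lay between 2.44 and 21.9 CPM in control eggs (median 5.51) and between 17.8 and 131 CPM in Dis3 cKO eggs (median 34.6) (log2 fold change 2.52, SE 0.43, edgeR adjusted p 5.52e-05). Its partner Rplp2 lay between 10.9 and 19.2 CPM in control eggs (median 14.4) and between 26.1 and 118 CPM in Dis3 cKO eggs (median 38.6) (log2 fold change 1.48, SE 0.22, edgeR adjusted p 7.91e-06). Ribosomal protein genes have many processed pseudogenes that share their reads, so these levels are uncertain. At GV 1 member was higher and 7 were lower (14.8% and 12.4% of all genes), and the interaction was higher for 19 and lower for 1 (5.84% and 2.76%). Under ERCC scaling 1 was higher and 28 were lower at GV (7.3% and 21.5% of all genes), and the interaction was higher for 41 and lower for 0 (23.5% and 0.409%).

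Of 76 tested mitochondrial ribosomal protein genes, 21 rose (27.6%) and 1 fell, against 17.5% and 13.2% of all tested genes, with a median of 0.42. Under ERCC scaling 28 rose and 0 fell with a median of 0.78, against 25.5% and 2.75%. The counts without egg 15 were 20 and 4 (43 and 0 under ERCC scaling), and without eggs 5 to 11 they were 11 and 1 of 73 (5 and 0). Mrpl38 lay between 2.93 and 9.97 CPM in control eggs (median 5.28) and between 11.8 and 39.5 CPM in Dis3 cKO eggs (median 21.1) and was above all controls in 16 eggs (log2 fold change 1.74, SE 0.23, edgeR adjusted p 1.98e-06). Over all genes the shares were 19.9% and 15.5% (41.7% and 3.71%) without egg 15, and 12.2% and 10.3% (9.0% and 3.46%) without eggs 5 to 11. The 5 of 73 under ERCC scaling without eggs 5 to 11, with a median of 0.36, were thus a smaller share than the 9.0% of all genes. With counts summed over 4 consecutive title numbers, 12 of 75 cytosolic and 5 of 76 mitochondrial ribosomal protein genes were higher, against 7.70% of the 18278 genes in that fit (5.81% lower and 13.5% in either direction).

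Host genes of small nucleolar RNAs carry these RNAs in their introns, and the spliced transcripts of several are known targets of nonsense-mediated decay. Of 9 tested (15 in the list), 6 rose and 0 fell, median 1.76, with the same count under ERCC scaling, median 2.24. In controls 6 members of the list had a mean above 1 CPM. Tested members below that, Snhg9 among them, passed the filter on low counts mainly through the Dis3 cKO eggs and could hardly be called lower. Over all tested genes 17.5% rose and 13.2% fell under library scaling, and 25.5% and 2.75% under ERCC scaling. Gas5 lay between 7.60 and 13.2 CPM in control eggs (median 12.4) and between 21.3 and 38.8 CPM in Dis3 cKO eggs (median 29.1), without overlap between the groups (log2 fold change 1.27, SE 0.15, edgeR adjusted p 4.21e-07). Snhg18 lay between 1.05 and 7.05 CPM in control eggs (median 5.31) and between 11.1 and 41.2 CPM in Dis3 cKO eggs (median 18.9) (log2 fold change 1.94, SE 0.28, edgeR adjusted p 4.39e-06). Snhg9 had 4 counts in all control eggs together and 202 in the Dis3 cKO eggs, with a highest control level of 0.174 CPM and a lowest Dis3 cKO level of 0.535 CPM. These genes lie over small nucleolar RNA genes and some, Gas5 and Snhg9 among them, over protein-coding neighbours. In GV oocytes 5 of 8 tested members were higher (3 under ERCC scaling), against 14.8% of all genes (7.3%). Without eggs 5 to 11, or without eggs 12 to 16, 4 of 7 were higher at MII, against 12.2% and 18.3% of all genes.

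The counts in the lists that follow stand beside 17.5% of all tested genes higher and 13.2% lower under library scaling, and 25.5% and 2.75% under ERCC scaling. These shares were 19.9% and 15.5% (41.7% and 3.71%) without egg 15 and 12.2% and 10.3% (9.0% and 3.46%) without eggs 5 to 11, with ERCC scaling in brackets. Under ERCC scaling the number higher fell by more than 1.5 times in 24 of the 26 pathway lists without eggs 5 to 11, in fits that kept egg 15. It rose by more than 1.5 times in 18 lists without egg 15 and in 21 without eggs 12 to 16. With counts summed over 4 consecutive title numbers under library scaling, the number higher fell by more than 1.5 times in 22 of the 26 lists and the number lower in 17, and 7.70% of all genes were higher and 5.81% lower. For each list the counts without egg 15 and without eggs 5 to 11 give the number higher and then lower, with those under ERCC scaling in brackets. The counts from the summed fit follow them. Of 13 tested members of the RNA exosome core and its ribonucleases, 3 rose (23.1%) and 3 fell (23.1%), with the deleted Dis3 among the latter. Under ERCC scaling 5 rose and 1 fell, which was Dis3. These are few genes, and no change of the exosome as a group is read from them. Leaving out egg 15 gave 3 and 4 (5 and 1), and without eggs 5 to 11 they were 2 and 3 (1 and 1). Summed counts gave 0 and 2 of 14. Exosc7, a ring subunit, rose (median 30.2 CPM in controls and 46.9 CPM in Dis3 cKO eggs, log2 fold change 0.52), and Exosc9 fell (median 57.5 CPM in controls and 35.9 CPM in Dis3 cKO eggs, log2 fold change -0.71; -0.39 and not called under ERCC scaling). Exosc9 overlaps Ccna2. Among 14 adaptor and cap-binding genes 2 rose and 3 fell, and under ERCC scaling 3 rose and 0 fell. Leaving out egg 15 gave 3 and 3 (8 and 0), and without eggs 5 to 11 they were 2 and 1 (1 and 0). With summed counts it was 1 and 0 of 14. Srrt, whose protein ARS2 links the cap-binding complex to the exosome, lay between 10.3 and 16.2 CPM in control eggs (median 12.8) and between 5.82 and 79.5 CPM in Dis3 cKO eggs (median 47.3) (log2 fold change 1.67, SE 0.27, edgeR adjusted p 3.10e-05; 2.15 under ERCC scaling). Ncbp3, an alternative cap-binding subunit, also rose (median 20.7 CPM in controls and 35.9 CPM in Dis3 cKO eggs, log2 fold change 0.70). Mtrex, the helicase that feeds RNA to the nuclear exosome, fell under library scaling only (median 63.0 CPM in controls and 50.0 CPM in Dis3 cKO eggs, log2 fold change -0.42; -0.05 under ERCC scaling).

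In cytoplasmic decay, Xrn1, the 5′ to 3′ exoribonuclease, lay between 59.3 and 106 CPM in control eggs (median 72.8) and between 13.3 and 40.9 CPM in Dis3 cKO eggs (median 27.1), below every control in all 16 eggs (log2 fold change -1.59, SE 0.15, edgeR adjusted p 1.15e-08; -1.23 under ERCC scaling). Ddx6, a helicase of mRNA storage and decapping, fell as well (median 33.9 CPM in controls and 16.4 CPM in Dis3 cKO eggs, log2 fold change -1.10; -0.74 under ERCC scaling). Lsm3, of the LSM ring that promotes decapping, rose (median 14 CPM in controls and 43.1 CPM in Dis3 cKO eggs, log2 fold change 1.65). The list of decapping, 5′ decay and uridylation held 6 higher and 4 lower of 20, and 7 and 2 under ERCC scaling. The counts without egg 15 were 6 and 5 (10 and 2), and without eggs 5 to 11 they were 4 and 3 (2 and 2). From summed counts it was 2 and 2 of 20. Of 18 deadenylation genes 1 rose and 5 fell under library scaling, while 2 rose and 0 fell under ERCC scaling. The counts without egg 15 were 1 and 5 (8 and 0), and without eggs 5 to 11 they were 0 and 3 (0 and 0). Summing gave 0 and 3 of 19. The catalytic subunits Cnot7 (median 1046 CPM in controls and 808 CPM in Dis3 cKO eggs, log2 fold change -0.59) and Cnot6l (median 1209.8 CPM in controls and 849 CPM in Dis3 cKO eggs, log2 fold change -0.55) were among those that fell relative to the library, with ERCC estimates of -0.23 and -0.20. The antiproliferative adaptor Tob1 rose (median 7.66 CPM in controls and 17.3 CPM in Dis3 cKO eggs, log2 fold change 1.09). Of 18 genes for storage of maternal mRNA 4 rose and 4 fell, and under ERCC scaling 6 rose and 0 fell. With egg 15 left out, the counts were 5 and 4 (9 and 0), and without eggs 5 to 11 they were 1 and 4 (0 and 0). Summed counts gave 0 and 2 of 18. Rbm44, a germ cell RNA-binding protein, rose (median 6.73 CPM in controls and 33.5 CPM in Dis3 cKO eggs, log2 fold change 1.59), and the storage granule protein Lsm14a fell under library scaling only (median 509 CPM in controls and 368 CPM in Dis3 cKO eggs, log2 fold change -0.54; -0.20 under ERCC scaling).

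Of 20 genes around CDK1 and its cyclins 3 rose (15%) and 4 fell (20%), against 17.5% and 13.2% of all tested genes (5 and 1 under ERCC scaling). With egg 15 left out, the counts were 3 and 6 (8 and 1), and without eggs 5 to 11 they were 3 and 3 (1 and 1). With summed counts it was 0 and 2 of 20. Ccnb1, cyclin B1, lay between 462 and 757 CPM in control eggs (median 555) and between 633 and 1102 CPM in Dis3 cKO eggs (median 905) (log2 fold change 0.50, SE 0.11, edgeR adjusted p 0.00112). Ccnb3, the cyclin needed for anaphase of the first meiotic division, lay between 4.21 and 9.31 CPM in control eggs (median 7.24) and between 0.831 and 5.79 CPM in Dis3 cKO eggs (median 2.50) (log2 fold change -1.49, SE 0.27, edgeR adjusted p 1.10e-04; -1.06 under ERCC scaling). The CDK1-inhibiting kinase gene Wee1 rose (median 7.89 CPM in controls and 20.6 CPM in Dis3 cKO eggs, log2 fold change 1.09).

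In the list of MII arrest and anaphase control 4 of 34 rose and 5 fell (8 and 0 under ERCC scaling). Once egg 15 was dropped, they were 7 and 6 (21 and 0), and without eggs 5 to 11 they were 2 and 4 (1 and 0). From summed counts it was 1 and 1 of 34. Cdc20, the activator of the anaphase-promoting complex, rose (median 176 CPM in controls and 332 CPM in Dis3 cKO eggs, log2 fold change 0.85). Ttk, a spindle checkpoint kinase, fell (log2 fold change -0.71, SE 0.09, edgeR adjusted p 5.37e-07; -0.31 and not called under ERCC scaling). Fbxo43, which encodes EMI2 and keeps the egg at metaphase II, fell by 0.39 on the log2 scale under library scaling and was at -0.01 under ERCC scaling. Mos, an oocyte marker and activator of the MAP kinase that sustains the arrest, was picked after its values were seen and had a mean 1551 CPM in controls and 2806 CPM in Dis3 cKO eggs (log2 fold change 0.74, edgeR adjusted p 0.173).

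Of 33 spindle and cohesion genes 3 rose and 8 fell, and 5 rose and 2 fell under ERCC scaling. When egg 15 was excluded, they were 4 and 8 (15 and 3), and without eggs 5 to 11 they were 2 and 6 (1 and 1). Summing gave 1 and 5 of 33. Smc4, a condensin subunit, lay between 1316 and 2170.5 CPM in control eggs (median 1615) and between 382 and 1306 CPM in Dis3 cKO eggs (median 810.0), below every control in all 16 eggs (log2 fold change -1.09, SE 0.15, edgeR adjusted p 3.87e-06; -0.71 under ERCC scaling). Smc1b, the meiotic cohesin subunit, fell (median 48.1 CPM in controls and 24.9 CPM in Dis3 cKO eggs, log2 fold change -1.09; -0.70 under ERCC scaling). The kinetochore motor Cenpe (median 906 CPM in controls and 586 CPM in Dis3 cKO eggs, log2 fold change -0.80) and the spindle protein Tacc3 (median 523 CPM in controls and 369.8 CPM in Dis3 cKO eggs, log2 fold change -0.56) fell under library scaling, with uncalled ERCC estimates of -0.45 and -0.14. Without egg 15 Cenpe was also called lower under ERCC scaling (-0.38, edgeR adjusted p 0.00949), and Tacc3 was not. Stag3, a meiotic cohesin subunit picked after its values were seen, had a mean 0.210 CPM in controls and 2.06 CPM in Dis3 cKO eggs (log2 fold change 3.15, edgeR adjusted p 0.00399). At that control level it passed the filter on low counts mainly through the Dis3 cKO eggs, so nothing about cohesin genes is read from it.

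Of 19 egg coat and activation genes, 2 rose and 4 fell (4 and 0 under ERCC scaling). Leaving out egg 15 gave 4 and 4 (10 and 0), and without eggs 5 to 11 they were 1 and 3 (1 and 0). Summed counts gave 1 and 3 of 19. The secreted oocyte protein gene Oosp2 lay between 93.8 and 189 CPM in control eggs (median 116) and between 154 and 522 CPM in Dis3 cKO eggs (median 341) (log2 fold change 1.32, SE 0.16, edgeR adjusted p 6.20e-07). Itpr1, the calcium release channel opened at fertilization, fell under library scaling (median 188 CPM in controls and 122 CPM in Dis3 cKO eggs, log2 fold change -0.64; -0.28 under ERCC scaling), as did the phospholipase Pla2g4c (median 1106 CPM in controls and 843 CPM in Dis3 cKO eggs, log2 fold change -0.57; -0.17 under ERCC scaling). Zp3, a zona pellucida glycoprotein, spread from 22.3 to 687 CPM in Dis3 cKO eggs around a median of 129, against 58.2 to 121 CPM in controls (edgeR adjusted p 0.0473). Its call was lost in 12 of the fits that left out 1 egg.

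In the subcortical maternal complex and oocyte Nlrp genes 1 of 16 rose and 4 fell, and 4 rose and 0 fell under ERCC scaling. The counts without egg 15 were 3 and 5 (7 and 0), and without eggs 5 to 11 they were 1 and 2 (0 and 0). With summed counts it was 0 and 1 of 16. Nlrp9b, Nlrp4b, Nlrp4a and Nlrp9c were the 4 that fell, by 0.28 to 0.48 on the log2 scale, with ERCC estimates from -0.08 to 0.08. These genes have near copies on chromosome 7, and their reads may have been split between them. Nlrp5, which encodes MATER, the scaffold of the complex, rose (between 599 and 1233 CPM in control eggs (median 829.6) and between 806 and 2410.3 CPM in Dis3 cKO eggs (median 1215); log2 fold change 0.63, SE 0.18, edgeR adjusted p 0.00857). Of 7 oocyte-secreted factors and gap junction genes 0 rose and 2 fell in the edgeR test with library scaling, and 1 rose and 0 fell with ERCC scaling (1 higher with DESeq2 or at an unadjusted p under 0.05 with library scaling). With egg 15 left out, the counts were 1 and 2 (3 and 0), and without eggs 5 to 11 they were 0 and 2 (0 and 0). From summed counts it was 1 and 1 of 7. Kit, the receptor for Kit ligand, lay between 437 and 841 CPM in control eggs (median 641) and between 153 and 634 CPM in Dis3 cKO eggs (median 428) (log2 fold change -0.73, SE 0.16, edgeR adjusted p 0.00118; -0.29 under ERCC scaling). Gdf9 and Bmp15, oocyte growth factors picked after their values were seen, had log2 fold changes of -0.06 and 0.07 and were not called.

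Of 12 oocyte transcription factors 1 rose and 1 fell (4 and 0 under ERCC scaling). Once egg 15 was dropped, they were 0 and 1 (7 and 0), and without eggs 5 to 11 they were 1 and 1 (0 and 0). Summing gave 0 and 1 of 13. The one that fell was Lhx8, a factor of early oocyte growth (median 46.2 CPM in controls and 29.9 CPM in Dis3 cKO eggs, log2 fold change -0.66; -0.24 under ERCC scaling). Among 28 maternal chromatin factors 3 rose and 5 fell (7 and 1 under ERCC scaling). When egg 15 was excluded, they were 5 and 6 (15 and 1), and without eggs 5 to 11 they were 3 and 4 (0 and 1). Summed counts gave 1 and 3 of 29. Ezh2, the histone H3 lysine methyltransferase of Polycomb complex PRC2, lay between 819.9 and 1244 CPM in control eggs (median 890.3) and between 341 and 608 CPM in Dis3 cKO eggs (median 437), without overlap (log2 fold change -1.18, SE 0.11, edgeR adjusted p 9.32e-09; -0.87 under ERCC scaling). Smarca4, the BRG1 remodeller needed after fertilization, fell under library scaling (median 64.1 CPM in controls and 40.4 CPM in Dis3 cKO eggs, log2 fold change -0.76; -0.35 under ERCC scaling). Zfp57, a zinc finger protein that protects imprints, rose (between 462 and 577 CPM in control eggs (median 538) and between 599 and 1440.2 CPM in Dis3 cKO eggs (median 854); log2 fold change 0.63, SE 0.12, edgeR adjusted p 1.29e-04). Dppa3, which protects the maternal methylome, rose as well (median 1274 CPM in controls and 2019.7 CPM in Dis3 cKO eggs, log2 fold change 0.51).

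In the proteasome list 7 of 38 rose and 6 fell (11 and 0 under ERCC scaling). With egg 15 left out, the counts were 10 and 8 (20 and 1), and without eggs 5 to 11 they were 3 and 4 of 37 (2 and 2). With summed counts it was 4 and 4 of 38. Psmb2, a core beta subunit, rose (median 50.3 CPM in controls and 168 CPM in Dis3 cKO eggs, log2 fold change 1.37), and Psma7, a core alpha subunit, fell (median 1380.4 CPM in controls and 784 CPM in Dis3 cKO eggs, log2 fold change -0.88; -0.49 under ERCC scaling). Of 48 spliceosome and SR protein genes 8 rose and 3 fell (16 and 0 under ERCC scaling). Once egg 15 was dropped, they were 10 and 5 (28 and 0), and without eggs 5 to 11 they were 4 and 2 of 46 (2 and 0). From summed counts it was 2 and 1 of 48. The U2 subunit genes Sf3b5 (median 32.7 CPM in controls and 118 CPM in Dis3 cKO eggs, log2 fold change 1.58) and Sf3b6 (median 14.6 CPM in controls and 30.6 CPM in Dis3 cKO eggs, log2 fold change 1.07) rose, and the large subunit Sf3b1 fell by 0.28 on the log2 scale under library scaling while it stood at 0.12 under ERCC scaling.

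Of 36 genes of RNA polymerase II and elongation 8 rose and 6 fell (10 and 1 under ERCC scaling). When egg 15 was excluded, they were 8 and 7 (19 and 1), and without eggs 5 to 11 they were 6 and 5 (5 and 1). Summing gave 5 and 4 of 37. The 8 that rose were Polr2d, Polr2f, Polr2g, Polr2h, Polr2j, Polr2l, Polr2m and Nelfb, named after their values were seen apart from Polr2j (median 121 CPM in controls and 282 CPM in Dis3 cKO eggs, log2 fold change 1.01), and the elongation factor Tcea1 fell under both scalings (log2 fold change -1.08, SE 0.13, edgeR adjusted p 2.59e-07; -0.76 under ERCC scaling). For 3′ end processing and Integrator the counts were 1 higher and 2 lower of 34 (4 and 0 under ERCC scaling). Leaving out egg 15 gave 2 and 4 (13 and 1), and without eggs 5 to 11 they were 1 and 1 of 31 (0 and 0). Summed counts gave 0 and 1 of 35. Papolg, a poly(A) polymerase, fell under library scaling (median 225 CPM in controls and 138 CPM in Dis3 cKO eggs, log2 fold change -0.88; -0.45 under ERCC scaling).

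Of 39 translation factors 4 rose (10.3%) and 9 fell (23.1%), against 17.5% and 13.2% of all tested genes (5 and 0 under ERCC scaling). The counts without egg 15 were 5 and 12 (14 and 1), and without eggs 5 to 11 they were 3 and 5 (2 and 2). With summed counts it was 1 and 6 of 40. Those that fell included the initiation factor subunit Eif3e (median 62.5 CPM in controls and 34.9 CPM in Dis3 cKO eggs, log2 fold change -0.86; -0.48 under ERCC scaling) and the scaffold Eif4g1 (median 121 CPM in controls and 72.2 CPM in Dis3 cKO eggs, log2 fold change -0.80; -0.38 under ERCC scaling). In the list of DNA damage checkpoint and apoptosis 4 of 34 rose and 10 fell (8 and 1 under ERCC scaling). With egg 15 left out, the counts were 5 and 10 (12 and 2), and without eggs 5 to 11 they were 3 and 5 (2 and 1). From summed counts it was 2 and 4 of 34. Chek2, the checkpoint kinase that eliminates oocytes with unrepaired breaks, lay between 0.339 and 5.76 CPM in control eggs (median 1.98) and between 5.77 and 31.7 CPM in Dis3 cKO eggs (median 15.6) and was above every control in all 16 eggs (log2 fold change 2.62, SE 0.39, edgeR adjusted p 7.96e-06). H2afx, the histone variant phosphorylated at breaks, also rose (median 5.57 CPM in controls and 22.2 CPM in Dis3 cKO eggs, log2 fold change 1.96). Bcl2l11, which encodes the pro-apoptotic protein BIM, lay between 47.8 and 96.8 CPM in control eggs (median 63.1) and between 15.1 and 35.3 CPM in Dis3 cKO eggs (median 22.2), without overlap (log2 fold change -1.67, SE 0.15, edgeR adjusted p 4.71e-09; -1.30 under ERCC scaling), and overlaps Acoxl. Bcl2, which encodes the anti-apoptotic partner of BIM and was picked after its values were seen, had a mean 3.57 CPM in controls and 0.729 CPM in Dis3 cKO eggs (log2 fold change -2.37, edgeR adjusted p 0.0154). Mdm4, an inhibitor of p53, fell under library scaling only (median 1757 CPM in controls and 1355 CPM in Dis3 cKO eggs, log2 fold change -0.55; -0.20 under ERCC scaling).

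Transporters of amino acids and nucleotide sugars had the lowest median of the 26 pathway lists, -0.56 under library scaling and -0.16 under ERCC scaling. The lists were chosen with earlier results of these data known, so this rank is a description only. Of 21 tested, 1 rose and 9 fell, and 3 rose and 4 fell under ERCC scaling. Once egg 15 was dropped, they were 3 and 10 (7 and 5), and without eggs 5 to 11 they were 1 and 9 (1 and 3). Summing gave 1 and 5 of 23. Slc35a1, the Golgi transporter of CMP-sialic acid, lay between 45.8 and 77.3 CPM in control eggs (median 51.7) and between 0 and 7.77 CPM in Dis3 cKO eggs (median 3.65), without overlap (log2 fold change -4.10, SE 0.36, edgeR adjusted p 2.61e-09; -3.64 under ERCC scaling). Slc7a1, the cationic amino acid transporter CAT1, lay between 35.6 and 89.8 CPM in control eggs (median 57.8) and between 0 and 10.4 CPM in Dis3 cKO eggs (median 5.33), also without overlap (log2 fold change -3.67, SE 0.38, edgeR adjusted p 3.21e-08; -3.27 under ERCC scaling). Slc35a3, a Golgi transporter of UDP-N-acetylglucosamine, fell under both scalings (median 38.1 CPM in controls and 12.7 CPM in Dis3 cKO eggs, log2 fold change -1.59; -1.19 under ERCC scaling). In the list of endoplasmic reticulum and integrated stress response 1 of 18 rose and 5 fell (4 and 0 under ERCC scaling). When egg 15 was excluded, they were 1 and 5 (8 and 0), and without eggs 5 to 11 they were 1 and 3 (0 and 0). Summed counts gave 0 and 0 of 23. Its named members Pdia4, Eif2ak4, Ddit4 and Atf6 had log2 fold changes of -0.58, -0.38, -0.41 and -0.30 and none was called under ERCC scaling. In the pathway lists with 0 members lower under ERCC scaling, edgeR at an unadjusted p under 0.05 gave 0 lower as well, except for 1 egg coat and activation gene, 2 proteasome genes and 2 translation factors, and DESeq2 called 0 lower except for 2 proteasome genes and 1 translation factor.

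**Figure D4:**
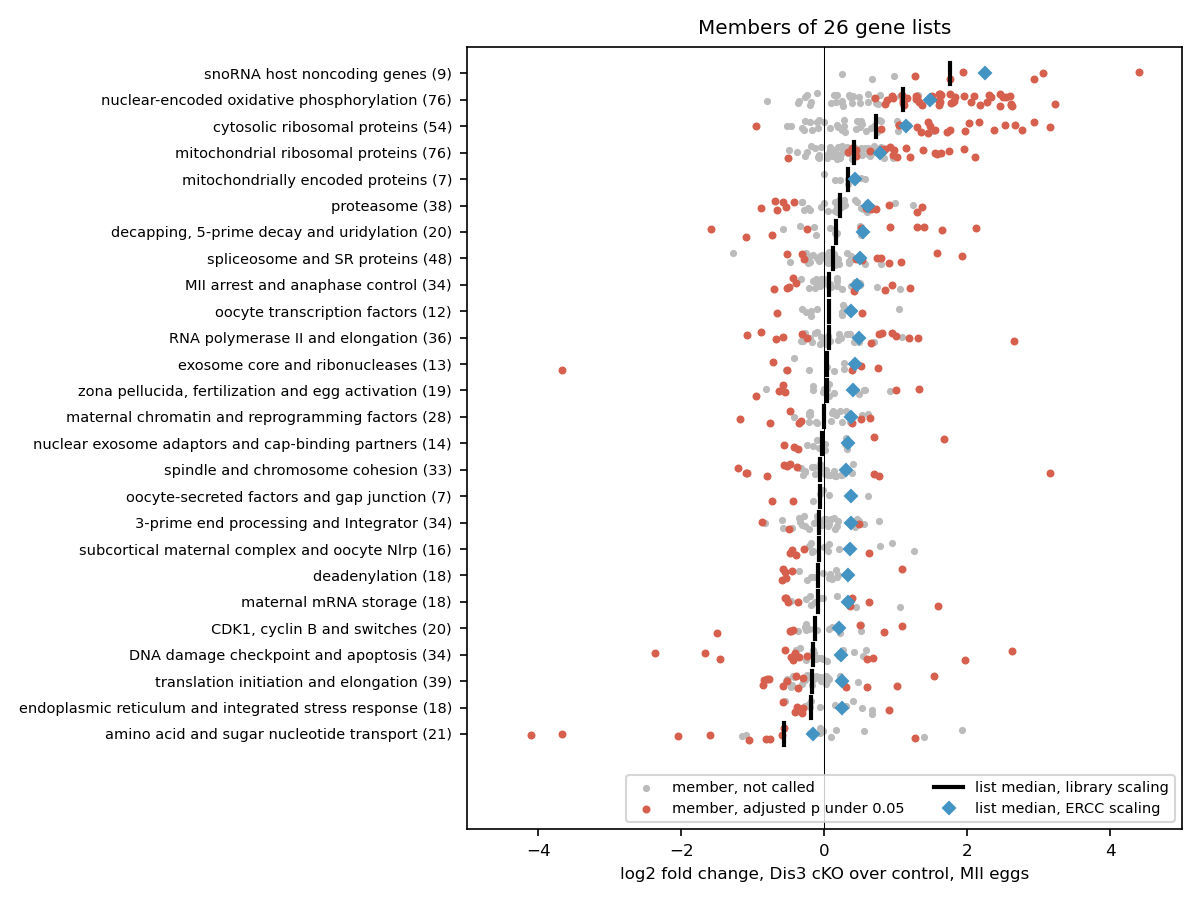
Log2 fold change (Dis3 cKO over control MII eggs, library scaling) of every tested member of the 26 pathway lists; each point is a gene, red where its adjusted p was under 0.05, the bar is the list's median and the diamond its median under ERCC scaling. The snoRNA host list has the highest median, 1.76, followed by oxidative phosphorylation with 1.10, and the transporter list has the lowest with -0.56. The lists were chosen with earlier results of these data known.

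Markers of other cells were low. Of 18 cumulus and granulosa cell markers 4 passed the filter, 2 (Ptx3 and Wt1) were at 0 in every MII egg, and 0 rose while 1 fell (edgeR, library scaling; 0 and 1 at an unadjusted p under 0.05, 1 and 1 with DESeq2). The gene that fell was Cyp19a1, aromatase (between 45.0 and 71.6 CPM in control eggs (median 52.9) and between 6.53 and 39.6 CPM in Dis3 cKO eggs (median 24.4); log2 fold change -1.26, SE 0.20, edgeR adjusted p 2.33e-05). The list summed to between 68.7 and 235 CPM in controls, with control egg 3 the highest, and to between 47.9 and 84.3 CPM in Dis3 cKO eggs. Its 14 members under the filter summed to 105 CPM in control egg 3 and to between 0.270 and 6.01 CPM in the other 23 eggs. Of the oviduct epithelial markers 1 and of the blood and immune markers 2 passed the filter, with 0 called by edgeR or DESeq2 and 0 at an unadjusted p under 0.05. Hba-a1 and Hbb-bt of the blood markers were at 0 in every egg. The part of attached cells in the results was not tested.

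Among genes that met the rule given next, the largest rises were of genes nearly silent in control eggs, which a ranking by fold change favours. Larger called rises under library scaling, such as 10.5 for 5730507C01Rik and 9.76 for Gsto2, were confined to stretches of Dis3 cKO eggs and did not meet it. Of the genes called in the same direction under both scalings, with at least 10 CPM in the higher group, 405 were higher and 189 lower with at least 15 of 16 Dis3 cKO eggs beyond all 8 controls. On the CPM scale alone 4.9% of all tested genes had that many eggs above and 2.39% below every control, and 2.82% and 1.42% had all 16. All 12 with the highest fold changes were above every control in 16 of 16 eggs, a pattern that their selection required of at least 15.

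Mt1, which encodes a zinc- and copper-binding metallothionein, lay between 0 and 1.44 CPM in control eggs (median 0.218) and between 9.64 and 49.9 CPM in Dis3 cKO eggs (median 29.3) (log2 fold change 5.97, SE 0.54, edgeR adjusted p 3.46e-09). The gene 4930519G04Rik lay between 0 and 0.594 CPM in control eggs (median 0.219) and between 6.46 and 53.9 CPM in Dis3 cKO eggs (median 12.2) (log2 fold change 5.98, SE 0.53, edgeR adjusted p 3.00e-09) and overlaps Gm9936. Calhm4, of the calcium homeostasis modulator family of large-pore channels, lay between 0.262 and 2.89 CPM in control eggs (median 1.04) and between 15.2 and 56.7 CPM in Dis3 cKO eggs (median 38.0) (log2 fold change 4.75, SE 0.35, edgeR adjusted p 1.26e-10). In the 8 control eggs together Mt1 had 35 counts and 4930519G04Rik had 20.

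Defb50, a beta-defensin, lay between 0.0849 and 1.31 CPM in control eggs (median 0.667) and between 5.16 and 37.6 CPM in Dis3 cKO eggs (median 20.8) (log2 fold change 4.60, SE 0.42, edgeR adjusted p 3.90e-09). Mog, the myelin oligodendrocyte glycoprotein, lay between 0 and 1.22 CPM in control eggs (median 0.177) and between 5.22 and 21.2 CPM in Dis3 cKO eggs (median 8.90) (log2 fold change 4.34, SE 0.58, edgeR adjusted p 1.69e-06). These are genes best known outside the oocyte, from mucosal defence and from myelin. The noncoding gene Gm16244 (chr19:42779032-42781574) lay between 0.261 and 1.87 CPM in control eggs (median 1.01) and between 15.4 and 102 CPM in Dis3 cKO eggs (median 36.3) (log2 fold change 5.06, SE 0.40, edgeR adjusted p 4.56e-10); it overlaps Hps1 and Nextera libraries do not mark strand, so reads of the pair cannot be told apart. The long noncoding RNA gene 1700001G17Rik (chr1:33669824-33670712), without an overlapping gene, lay between 0 and 0.788 CPM in control eggs (median 0.0891) and between 5.86 and 25.9 CPM in Dis3 cKO eggs (median 9.34) (log2 fold change 5.53, SE 0.54, edgeR adjusted p 1.38e-08).

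The other 5 were Gm10617, AC108836.1, Gm13181, Gm37372 and Gm36371, with log2 fold changes of 6.02, 5.36, 4.84, 4.58 and 4.55 under ERCC scaling. None of these 5 is annotated as protein coding in RefSeq. Across the 12, medians in Dis3 cKO eggs lay between 8.90 and 38.0 CPM.

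**Figure D5:**
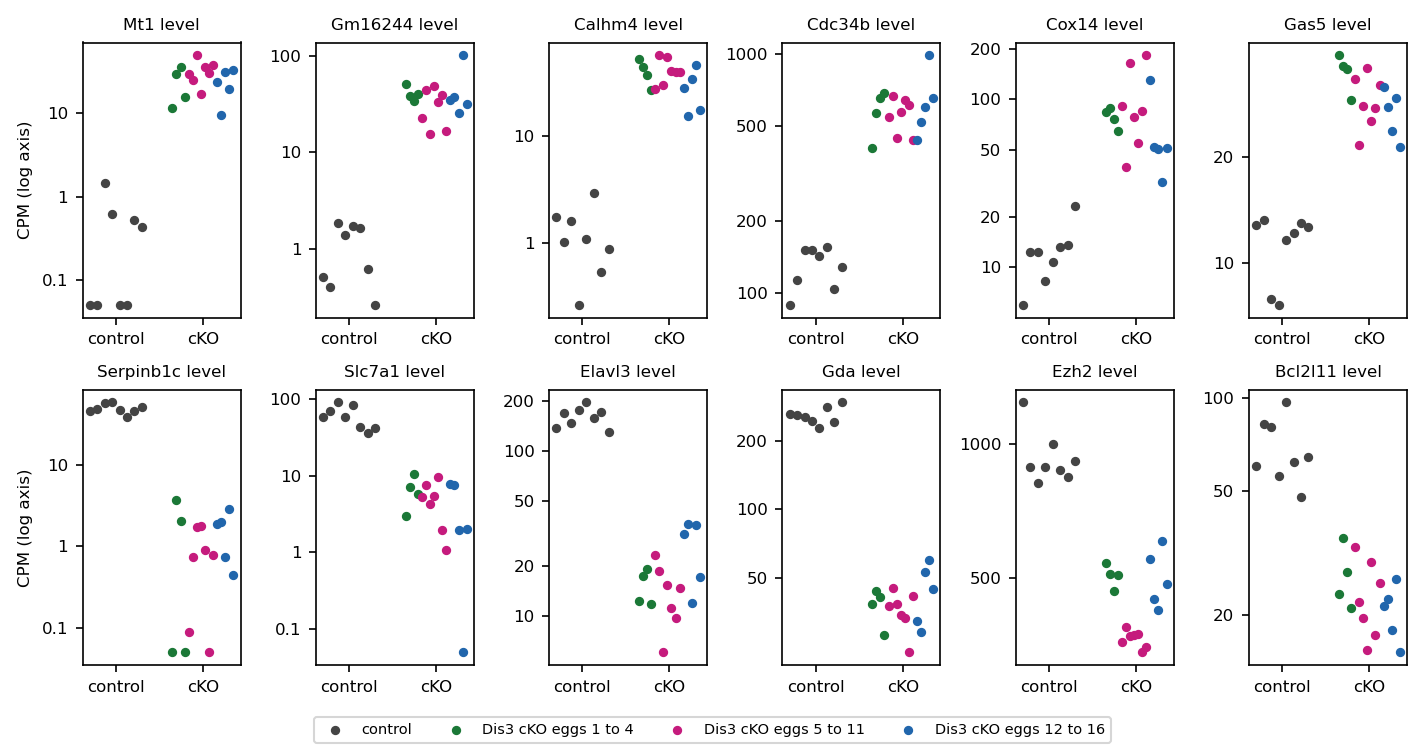
CPM of 12 genes in each of 8 control and 16 Dis3 cKO MII eggs on a log axis; points are eggs, and values under 0.05 CPM, zeros included, are drawn at 0.05. In the upper row every Dis3 cKO egg lies above every control, and in the lower row every Dis3 cKO egg lies below every control.

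Among the falls the lead was Serpinb1c, of the clade B serine protease inhibitors, which lay between 39.0 and 58.3 CPM in control eggs (median 47.6) and between 0 and 3.73 CPM in Dis3 cKO eggs (median 0.846) (log2 fold change -5.45, SE 0.46, edgeR adjusted p 1.69e-09; -5.19 under ERCC scaling). Its close copies may share its reads. Gda, guanine deaminase, lay between 227 and 294 CPM in control eggs (median 255) and between 23.7 and 59.8 CPM in Dis3 cKO eggs (median 38.7) and had the smallest adjusted p of the named genes (log2 fold change -2.83, SE 0.13, edgeR adjusted p 2.53e-15; -2.48 under ERCC scaling). Elavl3, an RNA-binding protein of the Hu family best known from neurons, lay between 129.9 and 196 CPM in control eggs (median 163) and between 6.06 and 36.3 CPM in Dis3 cKO eggs (median 16.3) (log2 fold change -3.23, SE 0.23, edgeR adjusted p 9.95e-11). These 3 were below every control in all 16 eggs.

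Cd160, an immunoglobulin-type receptor known from lymphocytes, lay between 107 and 156 CPM in control eggs (median 127) and between 4.77 and 30.8 CPM in Dis3 cKO eggs (median 17.1) (log2 fold change -3.06, SE 0.24, edgeR adjusted p 3.52e-10). Arid3a, a DNA-binding protein, lay between 17.2 and 35.7 CPM in control eggs (median 23.3) and between 1.04 and 6.81 CPM in Dis3 cKO eggs (median 3.32) (log2 fold change -3.03, SE 0.30, edgeR adjusted p 1.47e-08). Lrp2, the endocytic receptor megalin, lay between 8.84 and 18.2 CPM in control eggs (median 13.9) and between 0 and 7.68 CPM in Dis3 cKO eggs (median 0.941) (log2 fold change -2.72, SE 0.65, edgeR adjusted p 0.00211). Rnf152, a lysosomal ubiquitin ligase, lay between 4.62 and 34.1 CPM in control eggs (median 17.2) and between 0 and 7.68 CPM in Dis3 cKO eggs (median 1.44) and was below every control in 15 eggs (log2 fold change -3.31, SE 0.53, edgeR adjusted p 2.47e-05). The remaining genes of the rule were Ghdc (median 46.8 CPM in controls and 6.94 CPM in Dis3 cKO eggs, log2 fold change -2.76), Igsf9b, a synaptic adhesion protein (median 8.63 CPM in controls and 1.66 CPM in Dis3 cKO eggs, log2 fold change -2.73), and Rassf4, with a Ras association domain (median 41.7 CPM in controls and 1.64 CPM in Dis3 cKO eggs, log2 fold change -3.24).

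By change in mean level, the largest rises were of abundant maternal transcripts. Ldhb, a lactate dehydrogenase subunit, lay between 506 and 1787 CPM in control eggs (median 613) and between 654 and 3731 CPM in Dis3 cKO eggs (median 1782), with egg 8 the highest control at the Dis3 cKO median (log2 fold change 1.06, SE 0.29, edgeR adjusted p 0.00654). Pttg1, securin, which restrains separase until anaphase, lay between 1335 and 1963 CPM in control eggs (median 1521) and between 1295 and 4438 CPM in Dis3 cKO eggs (median 2081) (log2 fold change 0.41, SE 0.15, edgeR adjusted p 0.0347), and the groups overlapped. The call of Pttg1 was lost in 5 of the fits that left out 1 egg. D10Wsu102e lay between 1355 and 1685 CPM in control eggs (median 1568) and between 2015 and 4801 CPM in Dis3 cKO eggs (median 2453), above every control in all 16 eggs (log2 fold change 0.63, SE 0.12, edgeR adjusted p 1.55e-04). Cdc34b, annotated as a pseudogene and a copy of the ubiquitin-conjugating enzyme gene Cdc34, lay between 89.1 and 156 CPM in control eggs (median 136) and between 404 and 992 CPM in Dis3 cKO eggs (median 586) (log2 fold change 2.08, SE 0.15, edgeR adjusted p 1.40e-10); reads of the parent gene may be counted here.

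The largest falls in mean level included CT010467.1 and Gm42418, which have no RefSeq type, and the long noncoding RNA gene AY036118, which overlaps the 18S ribosomal RNA copy Rn18s-rs5. CT010467.1 lay between 11902 and 22102 CPM in control eggs (median 16339.6) and between 8537 and 18145 CPM in Dis3 cKO eggs (median 12791) and the groups overlapped (log2 fold change -0.47, SE 0.13, edgeR adjusted p 0.00868; -0.09 and not called under ERCC scaling). Rock1, a kinase of the actin cytoskeleton, lay between 1025 and 1734 CPM in control eggs (median 1185) and between 311 and 653 CPM in Dis3 cKO eggs (median 506), without overlap (log2 fold change -1.41, SE 0.12, edgeR adjusted p 1.69e-09; -1.03 under ERCC scaling). Rfpl4, an oocyte RING finger protein, fell under library scaling only (median 3491 CPM in controls and 2965 CPM in Dis3 cKO eggs, log2 fold change -0.44; -0.06 under ERCC scaling).

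Some of the changes at MII were also present in GV oocytes, which share no libraries with the MII eggs. Among 13662 genes tested at both stages, 1071 were higher at both, which is 44.8% of the 2391 MII calls and 54.6% of the 1960 GV calls, while 14.3% of all 13662 genes were called higher at GV. Lower at both were 712, which is 39.1% of 1821 MII calls and 39.9% of 1786 GV calls, while 13.1% of all genes were called lower at GV. In opposite directions were 81 of the genes higher at MII and 20 of those lower at MII. Across these genes, which are not independent replicates, the log2 fold changes correlated at 0.64.

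The overlap differed under ERCC scaling, where 1102 genes were higher and 3248 lower at GV (7.3% and 21.5% of 15099), with a median log2 fold change of -0.26 over all genes. Higher at both stages were 713 genes, which is 20.3% of the 3519 MII calls and 79.9% of the 892 GV calls, while 6.53% of all 13662 genes were called higher at GV. Lower at both were 266, which is 72.3% of 368 MII calls and 8.65% of 3076 GV calls, while 22.5% of all genes were called lower at GV. Of the genes higher at MII, 373 were lower at GV.

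The difference between the stages was itself tested. The interaction passed for 1408 of 16367 genes (8.6%), 956 in the higher (5.84%) and 452 in the lower direction (2.76%) under library scaling, and for 3842 and 67 under ERCC scaling (23.5% and 0.409%). Calhm4, with 3.73 at GV against 4.75 at MII, Cdc34b, with 2.03 against 2.08, and Mog, with 4.90 against 4.34, did not pass the interaction test under library scaling, which does not show that the rises were equal. Under ERCC scaling the interaction passed for Calhm4 (1.67, SE 0.57, edgeR adjusted p 0.0280). Defb50 was higher in both stages with 1.83 at GV (interaction 2.76, SE 0.43, edgeR adjusted p 2.31e-05). Slc35a1 was lower in both with -2.20 at GV (interaction -1.90, SE 0.48, edgeR adjusted p 0.00823; -1.12 under ERCC scaling, adjusted p 0.131). Ldhb, by contrast, had -0.58 at GV (interaction 1.62, SE 0.32, edgeR adjusted p 6.68e-04).

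The highest interaction terms were of genes that changed in some eggs only or that vary among control oocytes. Gsto2, a glutathione transferase, was at 1 count in all control MII eggs together, between 16.3 and 60.7 CPM in Dis3 cKO eggs 1 to 11, and at 0 in eggs 12 to 16. In control GV oocytes it lay between 0 and 52.1 CPM. Alpk3, an alpha-kinase, was at 0 in all control eggs and reached 1.82 CPM at most in Dis3 cKO eggs. In GV oocytes it lay between 0.619 and 35.9 CPM in controls and between 0 and 3.64 CPM in Dis3 cKO. Its interaction term thus rests on the GV stage and, with all control MII eggs at 0, on the prior count of the fit. Pnpla3 lay between 0.767 and 87.1 CPM in control GV oocytes.

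Mt1 belongs to the same kind. Control GV oocytes lay between 0.102 and 204 CPM (median 172), Dis3 cKO GV oocytes between 39.3 and 258 CPM (median 102), and only the MII controls were all at or below 1.44 CPM (interaction 6.47, SE 0.72, edgeR adjusted p 2.06e-08). The lowest terms were of Inha, Rassf4, Draxin and Myocd. Inha, the inhibin alpha subunit of granulosa cells, was at 19.7 CPM in control egg 3, whose cumulus markers summed to 235 CPM, and at 0 in all Dis3 cKO eggs. Rassf4 was 3.24 lower on the log2 scale at MII and had 3.24 at GV (interaction -6.49, SE 1.08, edgeR adjusted p 6.35e-05), with 0.11 to 42.6 CPM among controls at 3 h of culture. Myocd, myocardin, lay between 3.05 and 10.5 CPM in control eggs (median 6.14) and between 0 and 3.68 CPM in Dis3 cKO eggs (median 0.225) at MII (log2 fold change -3.42, SE 0.65, edgeR adjusted p 1.89e-04) and between 0.139 and 56.4 CPM in control GV oocytes. Draxin, an axon guidance protein, lay between 0.438 and 22.9 CPM in control eggs (median 12.7) and between 0.789 and 21.0 CPM in Dis3 cKO eggs (median 1.86) and was not called at MII (log2 fold change -1.01, SE 0.64, edgeR adjusted p 0.243).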

How the data were processed

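Single GV oocytes, oocytes at 3 h of culture and MII eggs were lysed with ERCC RNAs added, polyadenylated RNA was isolated with oligo-dT beads, and its amplified cDNA went into Nextera libraries, per the labels' protocols. The files deposited by the authors hold whole-number read counts per Ensembl gene and per ERCC RNA for each library, not normalized. The submitters' processing notes name cutadapt 2.5, FastQC 0.11.8, STAR 2.7.2a, SAMtools 1.9, HTSeq 0.9.1, R 3.5.1, DESeq2 1.24.0 and the mm10 build, with no settings. Nextera libraries do not mark strand, so overlapping genes share reads. Amplified reads without molecular identifiers are not independent molecules.

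The 24 MII eggs were fitted alone with edgeR 4.0.16 (limma 3.58.1, R 4.3.3): genes kept by filterByExpr, TMM factors for library scaling or summed ERCC counts as library size for ERCC scaling, quasi-likelihood F test, and Benjamini-Hochberg adjustment over all 14166 genes tested, called at 0.05. The difference between stages was an interaction in a fit of the 4 GV and MII groups. Measures per egg were compared by 2-sided exact permutation over 735471 regroupings, adjusted over 4 measures. Tables and permutations used Python 3.11.15, numpy 2.4.6 and pandas 2.3.3. The edgeR fit was also run on simulated counts for the 14166 genes in the same 24 libraries. There 100 genes were changed by 1 on the log2 scale and another 100 by 2. It called 41% of the former and 83% of the latter, with 7 false calls (5.34% of calls). In the eggs themselves 4336 genes were called under library scaling, far more than the simulation changed. Whether these shares hold with that many changes, or with the stretches of title numbers, was not tested. All 148 pairs of eggs within a group differed by more than sampling noise, with a chi-square per degree of freedom of 15.9 or more.

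Named genes are Dis3, then the 12 highest and 12 lowest fold changes among genes with a symbol called in the same direction under both scalings, with a mean of at least 10 CPM in the higher group and at least 15 of 16 Dis3 cKO eggs beyond all controls; then the 6 largest rises and 6 largest falls in mean CPM among called genes, up to 4 called members per list, and 4 interaction genes per direction; other genes are said to be picked after their values were seen, and some genes of the rule are not reported here. The comparison, the 26 pathway lists and the 4 marker lists were chosen with earlier results of these data known, and the lists come from textbook roles. Symbols, gene types and overlaps come from RefSeq GRCm38.p6. Other scalings, DESeq2 1.42.0, no filter, a fit of all 6 poly(A) groups, sums over 4 consecutive title numbers, a block on title numbers and left-out eggs were tried.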

Additional observations from a re-analysis of the deposited data

Results flagged for a closer look

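Among 146 values tested in the 8 control eggs (levels of the named genes and measures per egg), 24 had a highest or lowest egg set apart from the others, where chance alone gives about 1 in 20. In control egg 3 the cumulus and granulosa markers summed to 235 CPM, and the same egg was highest for Inha (19.7 CPM), Mt1 (1.44 CPM) and Gsto2 (0.0849 CPM). Control egg 8 was highest for Oosp2 (189 CPM), Cox14 (23.3 CPM), Cox7a2 (58.8 CPM), Ndufa2 (10.4 CPM), Rplp1 (21.9 CPM), Nlrp5 (1233 CPM), Ldhb (1787 CPM), Pttg1 (1963 CPM) and Rock1 (1734 CPM), and lowest for Ddit4 (61.7 CPM). Control egg 6 was highest for Mtrex (90.6 CPM), Mrpl9 (102 CPM) and H2afx (14.98 CPM), and control egg 5 for Pla2g4c (1457 CPM) and Eif2ak4 (158 CPM). Control egg 1 was highest for Lsm14a (675 CPM) and Ezh2 (1244 CPM), and control egg 2 for Smarca4 (79.9 CPM) and Cyp19a1 (71.6 CPM). Control egg 4 was lowest for Pcf11 (30.6 CPM).

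For 66 named genes the Dis3 effect at MII differed from that at GV by the edgeR interaction test under library scaling at an adjusted p under 0.05; 8 of them were named for this. Under ERCC scaling 40 of the 66 also passed in the same direction, 24 did not pass and 2 (Alpk3 and Inha) were not tested. The 24 were all below 0 under library scaling and lay between -1.12 and 0.07 under ERCC scaling, 7 of them above 0. The differences that follow are the MII minus the GV effect on the log2 scale under library scaling. RNA decay and RNA-binding genes and hosts of small nucleolar RNAs gave 0.55 for Exosc7, 0.88 for Ncbp3, 1.63 for Lsm3, -0.91 for Dcp2, -0.60 for Lsm14a, 1.93 for Rbm44, 1.00 for Gas5, 1.01 for Snhg18 and 1.81 for Snhg6. Genes of the meiotic cell cycle, spindle and cohesion gave -0.57 for Ppp2r2a, -0.66 for Ttk, 0.97 for Cdc20, -0.69 for Smc4, -0.96 for Smc1b and 0.64 for Pttg1. Oocyte, egg activation and maternal chromatin genes gave 1.26 for Oosp2, -0.64 for Itpr1, -1.42 for Ppp3ca, 1.57 for Zp3, 0.88 for Nlrp5, 0.69 for Dppa3, -0.97 for Ezh2 and 0.51 for Zfp57. For nuclear-encoded mitochondrial proteins the differences were 2.46 for Cox14, 1.30 for Ndufab1, 1.94 for Cox7a2, 2.54 for Ndufa2, 1.58 for Mrpl38, 1.02 for Mrpl57 and 1.35 for Mrpl35. For cytosolic ribosomal proteins and translation factors they were 2.29 for Rps21, 1.83 for Rplp2, 2.64 for Rplp1, -0.67 for Eif3e and -0.61 for Eef1a1. Proteasome, splicing, transcription and polyadenylation genes gave -0.68 for Psma7, 1.67 for Psmb2, -0.53 for Psme4, 1.40 for Sf3b5, -0.65 for Tcea1, 1.47 for Polr2j and -0.68 for Papolg. Genes of the damage response and of sugar nucleotide transport gave -0.99 for Bcl2l11, 2.49 for H2afx, -1.90 for Slc35a1 and -1.38 for Slc35a3. Of the remaining genes, the largest above 0 were 12.61 for 5730507C01Rik, 9.39 for Gsto2, 8.01 for Pnpla3, 7.01 for Alpk3, 6.47 for Mt1 and 2.76 for Defb50. Smaller ones above 0 were 2.63 for 4930519G04Rik, 1.93 for Gm16244, 1.62 for Ldhb and 1.62 for Gm13181. Those furthest below 0 were -3.36 for Myocd, -3.50 for Draxin, -6.49 for Rassf4 and -6.73 for Inha. Nearer to 0 were -0.75 for Rock1, -1.04 for Gda, -1.07 for CT010467.1, -1.16 for Gm42418, -1.17 for AY036118 and -1.40 for Arid3a. Where a gene was at 0 in every egg of a group, the fitted term depends on the prior count and is no bound.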

How the results depend on the processing

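The library calls (4336) became 7315 when all 6 poly(A) groups shared 1 fit and 2469 when counts were summed over 4 consecutive title numbers. The ERCC calls (4005) became 6473 with no filter on low counts, 7284 with all 6 groups in 1 fit, and, in alternatives added after seeing the data, 1624 without Dis3 cKO eggs 5 to 11 and 6595 without eggs 12 to 16. The interaction calls (1408) became 3909 under ERCC scaling. The oxidative phosphorylation genes called higher (44), also counted after seeing the data, became 20 of 79 with summed counts (7.70% of all genes) and 28 without eggs 5 to 11. The difference in log2 gene to ERCC ratio (0.20, exact permutation p 0.376) was 0.23 between group medians (exact permutation p 0.0130). In title numbers 1 to 8 with a replicate block it was 0.37 (exact permutation p 0.00781, the smallest that 8 pairs can give). Leaving out 1 egg gave 3959 to 4974 library calls, 3397 to 6394 ERCC calls, 1899 interaction calls (without egg 15), 37 to 45 oxidative phosphorylation calls, and log2 differences of 0.16 to 0.32 for the ratio, 0.11 to 0.13 for genes detected, 0.15 to 0.36 for the mitochondrial share and 0.00361 to 0.0717 for the long noncoding RNA share. The cause of these shifts was not tested.

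Calls made in both the original and the altered fit were 1502 of 2473 higher (60.7%) and 1231 of 1863 lower genes (66.1%) without eggs 5 to 11, and 46.5% and 53.3% with summed counts. Of 133 named genes, 4 changed sign under ERCC scaling (Pum2 0.0082, Nlrp4a 0.0790, Sf3b1 0.119, Atf6 0.0751), 44 lost the call and 85 kept both. Summed counts lost 40 of the 133, and leaving out eggs 5 to 11 lost 15 of the 129 still tested. AY036118, Atf6, Bmp6, Gm42418, Mtrex, Pcf11, Pttg1, Rbbp6, Tbpl2 and Zp3 lost the call without at least 1 single egg. Tbpl2 lost it in 15 of the fits without 1 egg, Zp3 in 12 and Pttg1 in 5. Title numbers do not pair the eggs by any label: deviations of same-numbered eggs correlated at -0.05 to 0.05, and 0 of 8 controls correlated best with their own number. With these numbers as a replicate block, 3464 genes were called under library scaling and 4649 under ERCC scaling (3530 and 5399 for the same eggs without the block), and 30 oxidative phosphorylation genes (34 without). Depth limits the genes that were nearly silent in controls, such as Snhg9 with 4 and 4930519G04Rik with 20 counts over all 8 control eggs.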
